A study of Mus musculus with 3 samples.

Results

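The regions described here are the CHD7 peaks of the mouse otocyst that lie away from gene ends and share no base with a SOX2 peak. They were chosen by the measured overlap of the CHD7 and SOX2 peak lists and by position: CHD7 peaks on chromosomes 1 to 19 and X with no base in common with any SOX2 peak and with no end of a protein-coding gene on them or within 1 kb. There were 10437 such regions among 33035 deposited CHD7 peaks, or 31.6%. They were 39.2% (95% exact interval 38.6 to 39.8) of the 26621 CHD7 peaks away from gene ends, the other 16184 of which shared at least 1 base with SOX2. They are called SOX2-free distal peaks below, and the others SOX2-sharing distal peaks. Where either name is shortened, distal is still meant, so CHD7 peaks at gene ends are in neither class. Together the SOX2-free peaks covered 8.49 Mb.

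The otocyst is the closed epithelial vesicle from which the inner ear forms. Otocysts were taken from wild-type mouse embryos at the embryonic stage E10.5, 34 of them were pooled, and the dissociated cells were divided into 3 samples. One part was profiled with an antibody against CHD7, the next with an antibody against SOX2, and the last without a primary antibody, which is not analysed here. The method was CUT&Tag, in which a transposase tethered to the antibody cuts and tags the chromatin nearby, so that sequenced fragments pile up where the antibody bound. Each antibody had 1 library from the same pool of cells, so there is no replicate check and no test between conditions. The intervals given are exact Clopper-Pearson intervals over peaks or genes, which are not replicates and cover counting error only. The SOX2 list held 155548 peaks over 107 Mb, against 33.5 Mb for the CHD7 list, and SOX2-free means free of a peak in that longer list. Peak lists hold no expression, so the tissue label could not be checked against expressed markers, and in a pool of cells the signal of otic cells and that of mesenchyme, blood or hindbrain cells cannot be told apart.

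CHD7 is an enzyme of the chromodomain helicase family that uses ATP to slide nucleosomes, and it is found mostly at enhancers and promoters. Loss of a single copy of the gene causes CHARGE syndrome in humans, and in mice it causes malformed semicircular canals. SOX2 is a transcription factor with an HMG box that binds short AT-rich letters, and the prosensory patches of the inner ear depend on it. Both proteins act in the otocyst, and CHD7 is also known to bind sites that other transcription factors occupy.

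The sequences that can be shown come from RefSeq's windows of 250 bases before to 50 bases after an annotated start (GRCm38.p6, the build also called mm10), because no genome sequence of that build was used here. Although gene ends were left out by the rule, 125 SOX2-free distal peaks (1.20%, 0.998 to 1.43) touched such a window, against 621 SOX2-sharing distal peaks (3.84%, 3.55 to 4.15). These are starts of non-coding genes or starts inside a protein-coding gene: 73 of the 125 touched a window of a lncRNA gene and 57 a window of a protein-coding gene, and some touched both. The 4 windows below were chosen after their values were seen, because they show the kinds of start such a peak can lie on. Rubie is a long non-coding RNA named for its place upstream of Bmp4 and its expression in the inner ear; capitals mark the 249 bases of its window (chr14:46575802-46576101, minus strand) inside the peak. Gm40237 is the lncRNA whose start lies under the ninth strongest SOX2-free distal peak; capitals mark a unit of 43 bases that is present in 2 exact copies (chr4:118546889-118547188, plus strand). The Dock9 window (chr14:121698368-121698667, minus strand) is an internal start of a gene with 5 SOX2-free distal peaks and no SOX2-sharing one; capitals mark ATTGTT, the reverse complement of the SOX letters AACAAT. The Gm39546 window (chrX:159516514-159516813, minus strand) was the only 1 of 100 windows covered for at least 150 bases that held the longer SOX letters ACAATGG, which are in capitals; they lie outside the peak, which covers the first 163 bases of the window as printed.
Rubie: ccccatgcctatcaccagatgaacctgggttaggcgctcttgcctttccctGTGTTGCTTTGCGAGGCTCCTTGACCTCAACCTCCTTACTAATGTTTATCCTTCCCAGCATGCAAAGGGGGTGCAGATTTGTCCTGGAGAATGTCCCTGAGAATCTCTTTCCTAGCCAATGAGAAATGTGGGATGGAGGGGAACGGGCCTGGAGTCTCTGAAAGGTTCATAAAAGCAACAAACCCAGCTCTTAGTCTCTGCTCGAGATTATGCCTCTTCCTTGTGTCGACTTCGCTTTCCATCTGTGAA
Gm40237: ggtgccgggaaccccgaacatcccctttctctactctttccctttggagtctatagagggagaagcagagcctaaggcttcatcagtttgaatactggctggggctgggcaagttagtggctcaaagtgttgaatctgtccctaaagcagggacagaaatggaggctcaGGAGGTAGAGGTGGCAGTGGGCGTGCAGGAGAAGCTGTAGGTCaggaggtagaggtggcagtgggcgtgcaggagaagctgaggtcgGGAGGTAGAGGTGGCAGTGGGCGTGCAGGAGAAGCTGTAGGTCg
Dock9: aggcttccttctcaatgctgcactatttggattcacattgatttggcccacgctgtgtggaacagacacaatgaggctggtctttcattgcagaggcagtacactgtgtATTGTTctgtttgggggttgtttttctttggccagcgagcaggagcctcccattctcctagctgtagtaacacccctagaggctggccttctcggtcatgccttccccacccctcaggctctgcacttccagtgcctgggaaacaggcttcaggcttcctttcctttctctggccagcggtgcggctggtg
Gm39546: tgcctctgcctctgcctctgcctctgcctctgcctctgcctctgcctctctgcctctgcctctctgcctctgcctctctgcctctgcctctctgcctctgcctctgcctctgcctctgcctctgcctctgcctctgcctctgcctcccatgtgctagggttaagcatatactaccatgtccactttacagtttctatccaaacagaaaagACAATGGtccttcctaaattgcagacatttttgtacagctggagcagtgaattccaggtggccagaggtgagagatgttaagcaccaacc

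The peak on the Rubie start (chr14:46575051-46576050) had a total signal of 696.8 and the peak on the Gm40237 start one of 34467.1. The peak on the Dock9 start had 469.1 and lay 11100 bases from the nearest SOX2 peak. The peak on the Gm39546 start had 970.1. Total signal is the authors' own value, the coverage signal summed over the peak, and the CHD7 list as a whole had a median of 651.3.

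The windows were searched on both strands for 12 motifs. SOX factors were represented by the letters ACAATGG and by the shorter AACAAT, TEAD factors by the letters GGAATG, the AP1 family by the letters TGANTCA and homeobox factors by the letters TAATTA. The letters AGATAA stood for GATA factors, CAGCTG for proteins of the E box, CCGGAAG for ETS factors and TGACGTCA for the cyclic AMP response element, and longer motifs stood for CTCF, RFX and NFI. For none of them did the interval on SOX2-free peaks leave out the shares of both other sets. Of the 100 windows on SOX2-free peaks, 10 held AACAAT (10%, 4.9 to 17.6), against 39 of 615 windows on SOX2-sharing peaks (6.34%, 4.55 to 8.57) and 10.8% of all 26794 genes' windows. The longer ACAATGG, which overlaps AACAAT where both occur together, was in 1.0% (0.0253 to 5.45), against 2.93% (1.74 to 4.59) on SOX2-sharing peaks and 3.73% of all windows. AGATAA was in 2% (0.243 to 7.04), against 3.25% (1.998 to 4.98) on SOX2-sharing peaks and 11.4% of all windows, and the median GC content was 56.5%, against 62.0% and 52.7%. The windows on SOX2-free peaks held a median of 11.5 CpG dinucleotides, against 20 on SOX2-sharing peaks and 7 over all genes. A stretch of 30 bases repeated exactly within the window, as at Gm40237, was found in 6.0% (2.23 to 12.6), against 1.95% (1.01 to 3.38) on SOX2-sharing peaks and 0.746% of all windows. A match to letters is a description of the window and says nothing of which factor binds there.

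MicroRNA genes lay under 8 SOX2-free distal peaks (0.0767%), against 11 SOX2-sharing ones (0.0680%). The 3 with the highest total signal were Mir6481 at 5028.0, Mir199a-1 at 1566.7 and Mir674 at 742.4, and their mature sequences are shown with the seed, bases 2 to 8, in capitals. Mir199a-1 lies inside Dnm2 and gives the miR-199a pair, which is known from mesenchymal cells. No seed was shared among the 5 mature sequences.
miR-199a-3p: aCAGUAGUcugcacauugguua
miR-199a-5p: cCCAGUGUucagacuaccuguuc
miR-674-5p: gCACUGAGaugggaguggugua
miR-674-3p: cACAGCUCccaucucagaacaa
miR-6481: cACUGAAAaugcuuagaug

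Most SOX2-free distal peaks were low in total signal and somewhat narrow. Their total signal had a median of 560.2 (quartiles 482.8 and 692.3), against 724.1 (551.1 and 1079.4) for SOX2-sharing distal peaks, a ratio of 0.774. Their maximum signal, the highest coverage in the peak, had a median of 1.73 against 1.82, a ratio of 0.95 over peaks of all widths. They were 800 bases wide at the median (450 and 1100), against 950 (700 and 1250). Total signal per base, the total divided by the width, had a ratio of 0.937. It does not compare peaks of similar width, for which the ratios of median total signal were lower, at 0.662 to 0.883. A wider peak also offers the rule more bases on which SOX2 can fall.

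**Figure D1:**
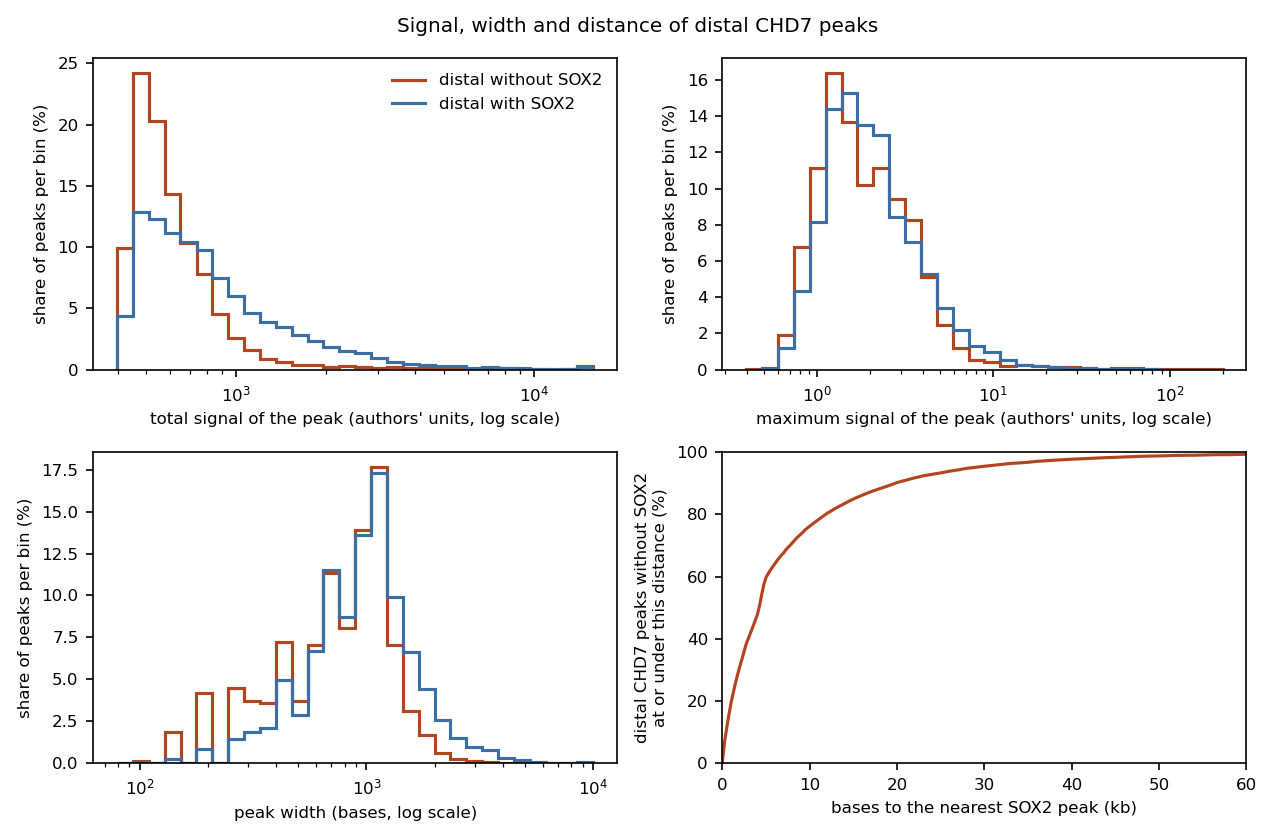
Distributions of total signal, maximum signal and width (log axes, share of peaks per bin) for SOX2-free distal CHD7 peaks (n = 10437) and SOX2-sharing ones (n = 16184), and the cumulative share of SOX2-free peaks by distance to the nearest SOX2 peak; the last bin holds all higher values. Total signal lies lower and width has more narrow peaks without SOX2 (medians 560.2 and 800 bases) than with it (724.1 and 950 bases), and the distance curve bends at 4 to 5 kb.

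At similar width, SOX2-free peaks were lower in both total and maximum signal. Of distal CHD7 peaks up to 300 bases wide, 67.1% (65.1 to 69.1) were SOX2-free. The share was 45.6% at 350 to 600 bases, 38.8% at 650 to 1000, 35.8% at 1050 to 1500, and 16.2% (14.9 to 17.7) above 1500 bases. Within each class the median total signal without SOX2 was below that with SOX2, by ratios of 0.883, 0.830, 0.847, 0.829 and 0.662 in the same order. The median maximum signal was below it too, by ratios of 0.905, 0.875, 0.842, 0.8125 and 0.75. Narrow SOX2-free peaks were tall and wide ones flat: Spearman's rank correlation across peaks between width and maximum signal was -0.69 without SOX2 and -0.36 with SOX2. No peak of the list had a total below 432.7, so a narrow peak had to be tall to be listed. The part of this limit in the correlations was not tested. Up to 300 bases wide, SOX2-sharing peaks were taller still, with a median maximum of 3.83 against 3.46. Peaks of 1 library are not independent replicates, so these are descriptions.

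By rank in the whole CHD7 list, SOX2-free distal peaks were also frequent at the other extreme, among the 50 highest ranks. Among the 50 CHD7 peaks with the highest maximum signal, 34 were SOX2-free distal peaks (68.0%, 53.3 to 80.5), 15 shared SOX2 and 1 lay at a gene end. The SOX2-free share was 37.3% (29.6 to 45.6) at ranks 51 to 200 and 18.6% (16.0 to 21.5) at ranks 201 to 1000. It was 26.65% at ranks 1001 to 3000, 34.6% (33.5 to 35.7) at ranks 3001 to 10000, 26.9% (26.05 to 27.8) at ranks 10001 to 20000 and 36.0% (35.1 to 36.8) over the last bin, from rank 20001 on. Ranked by total signal the SOX2-free share was 46.0% in the top 50, had its lowest value of 7.0% (5.92 to 8.21) at ranks 1001 to 3000, and was 46.0% from rank 20001 on. By total signal the share was therefore high at both ends and low between them, while by maximum signal it was lowest at ranks 201 to 1000 and uneven after them. Of the 59 CHD7 peaks at 20 or more times the list's median maximum, 39 were SOX2-free (66.1%, 52.6 to 77.9). These bins were set after the values were seen.

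**Figure D2:**
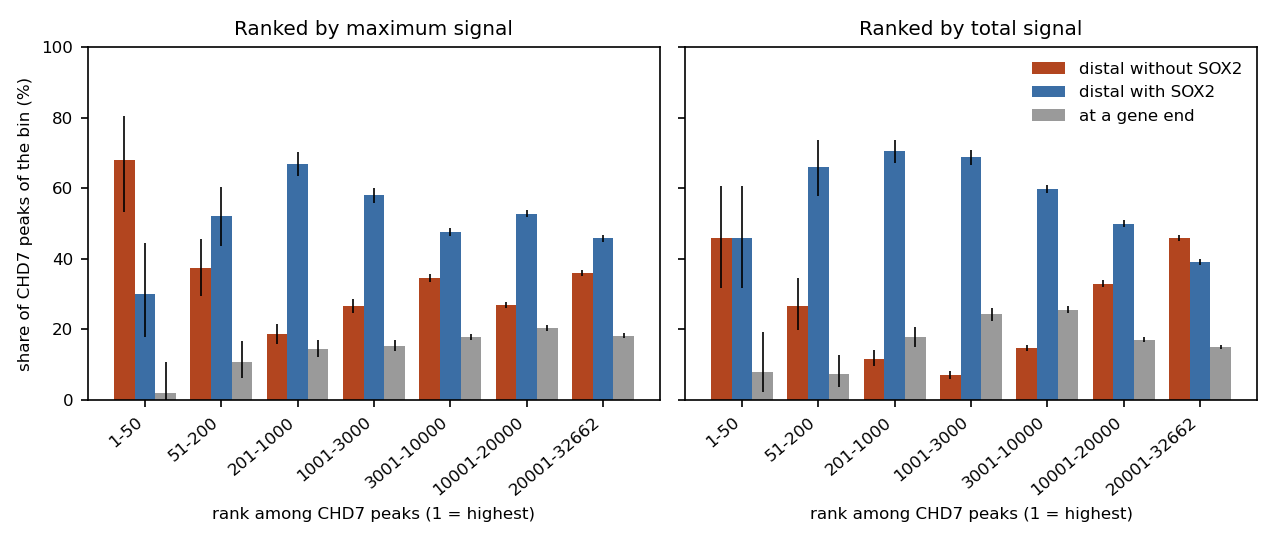
Share (%) of CHD7 peaks in each rank bin that are SOX2-free distal, SOX2-sharing distal or at a gene end, ranked by maximum signal (left) and by total signal (right); error bars are exact 95% intervals. SOX2-free peaks make up 68.0% of the 50 tallest, 18.6% of ranks 201 to 1000 and 36.0% of the last bin by maximum signal.

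The strongest of all SOX2-free distal peaks by total signal was chr5:104330451-104332450, inside Mepe, which encodes a matrix protein of bone and teeth. It had a total of 118335 and a maximum of 141, which were 182 and 77.4 times the medians of the CHD7 list, and the nearest SOX2 peak began 800 bases away. Next came chr5:25815701-25818800 inside Actr3b, an actin-related protein gene, at 99261.5, and chr1:75460501-75462900 inside Asic4, of the acid-sensing ion channel family, at 79855.5. The fourth, chr16:30717101-30719250, lay 114 kb from the nearest protein-coding gene, Fam43a, and had 56163.9. The sixth, chr2:58425851-58426600, had 49478.2 in only 750 bases and lay 19.8 kb from Acvr1, a type I receptor for BMP ligands, inside the lncRNA gene LOC108168760. The remaining 5 of the strongest 10 lay 101 kb from Scaf8 on chromosome 17, 11.1 kb from Eci2, inside Mindy2, in Gm40237 and 35.0 kb from Lipc, with totals of 50598.6, 43047.5, 38497.7, 34467.1 and 33642.8. Among the 5 strongest inside genes the fifth was chr17:84459101-84464300 in Thada, at 22798.9. In the 10 tallest, chosen after values were seen, the second was a peak of 500 bases on chromosome 12 with a maximum of 145.6, 682 kb from any protein-coding gene, and the sixth lay 8.09 kb from Olfm1, a secreted protein of the nervous system, with a maximum of 118.3. These regions were tall as well as strong, since 6 of the 10 strongest were also among the 10 tallest.

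The regions with the lowest total signal, at 432.7, had the lowest value of the whole CHD7 list. At the rule's own border, 70 SOX2-free peaks touched a SOX2 peak without sharing a base, with a median total of 555.6 and a width of 800 bases. Outside it, 98 distal peaks shared only 50 bases with SOX2, the size of 1 bin, and had a median total of 539.7 and a width of 775 bases. At the gene border, 16 SOX2-free peaks lay up to 50 bases beyond the 1 kb limit, with a median total of 530.6, and 10 peaks without SOX2 lay in the last 50 bases before it, with 546.5. The nearest to the limit was a peak 1007 bases from Maf, a leucine zipper transcription factor, at 687.7.

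The shares inside gene bodies were close, and their intervals overlapped. Inside protein-coding genes were 3745 (35.9%, 35.0 to 36.8), against 6023 SOX2-sharing ones (37.2%, 36.5 to 38.0). The median distance to the nearest gene border was 52655 bases without SOX2, against 44805 with it. Over 1000 kb from any border lay 290 (2.78%) without SOX2, against 363 (2.24%) with it. By chromosome, 36.4% (chromosome 11) to 41.9% (chromosome 19) of distal CHD7 peaks were SOX2-free, and 40.7% were on X. Shares on small non-coding genes differed by kind. A tRNA gene was on 13 (0.125%, 0.0663 to 0.213), against 66 (0.408%, 0.316 to 0.519) with SOX2, and a small nuclear RNA gene was on 2 (0.0192%, 0.00232 to 0.0692), against 40 (0.247%, 0.177 to 0.336). A small nucleolar RNA gene was on 1 (0.00958%, 0.000243 to 0.0534), against 17 (0.105%, 0.0612 to 0.168), and for these 3 kinds the intervals did not overlap. For miRNA genes, on 8 (0.0767%, 0.0331 to 0.151) against 11 (0.0680%, 0.0339 to 0.122), they overlapped, as they did for rRNA genes, on 0 (0%, 0 to 0.0353) against 4 (0.0247%, 0.00674 to 0.0633). A lncRNA gene body held 936 (8.97%, 8.43 to 9.53), against 1642 (10.2%, 9.69 to 10.6).

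The nearest SOX2 peak was usually a few kilobases away. The median distance was 4200 bases (quartiles 1450 and 9500), 18.98% of the regions lay under 1 kb, 59.5% under 5 kb and 76.1% under 10 kb, and the farthest lay at 128200 bases. Only 123 (1.18%) lay over 50 kb from SOX2. Among the strongest 10% by total signal, the farthest from SOX2 was chrX:169164501-169166000 inside Arhgap6, a gene of a GTPase-activating protein, with a total of 983.7 and 127 kb to SOX2. Second was a peak on chromosome 16 with a total of 947.3, 89.95 kb from SOX2 and 1325 kb from Ncam2, a neural cell adhesion gene. Distance depended on the length of the SOX2 list: with only as many of the strongest SOX2 peaks as there are CHD7 peaks, 17469 regions were SOX2-free and their median distance was 24150 bases.

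Neighbouring CHD7 peaks stood at a preferred spacing, which was noticed after the distances were plotted. In bins of 500 bases between 1 CHD7 peak and the next, the number of pairs was 1278 at 0 to 0.5 kb and had gone down to 290 at 3.0 to 3.5 kb. It was then 493 at 3.5 to 4 kb, 1280 at 4 to 4.5 kb and 584 at 4.5 to 5 kb, and 224 in the next bin. The window from 3.5 to 5 kb held 2357 pairs, against 914 in the window of the same length below it and 612 in the one above. The peaks of these pairs were 5375 bases apart from centre to centre at the median (quartiles 5150 and 5600). A neighbour in this window was found for 1620 SOX2-free distal peaks (15.5%, 14.8 to 16.2), for 2719 SOX2-sharing ones (16.8%, 16.2 to 17.4) and for 5.15% (4.60 to 5.74) of gene end peaks. The spacing was thus shared by both distal classes, and their intervals met. No annotation of repeated sequence was used here, so whether the spaced peaks lie on such sequence was not tested.

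**Figure D3:**
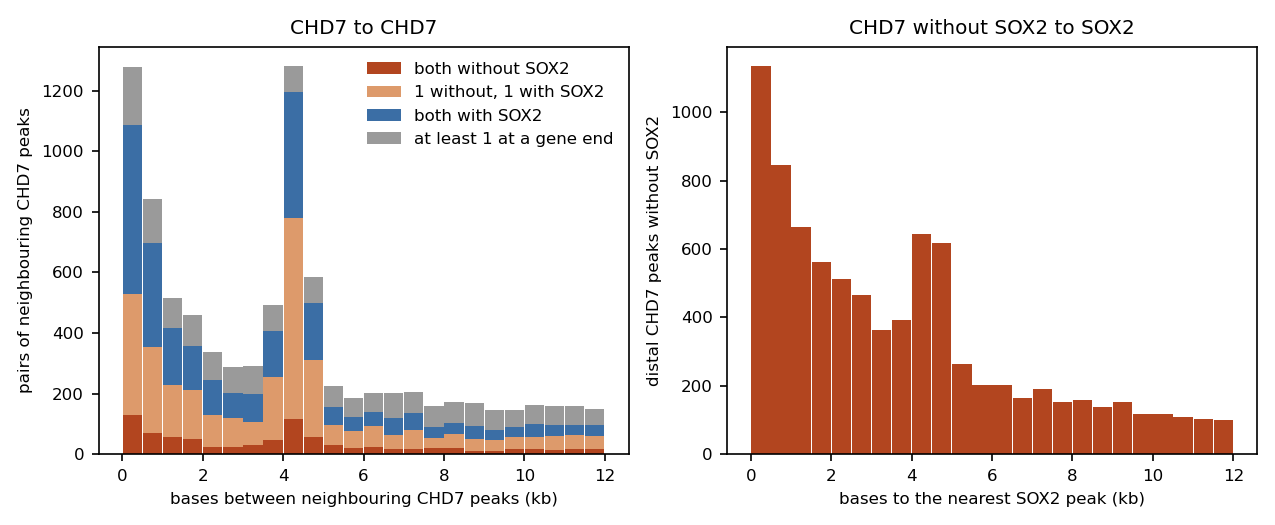
Number of pairs of neighbouring CHD7 peaks by the bases between them, in bins of 0.5 kb and coloured by class of the pair (left), and number of SOX2-free distal CHD7 peaks by the bases to the nearest SOX2 peak (right). Both have a second mode at 4 to 5 kb, with 1280 CHD7 pairs in the bin from 4 to 4.5 kb. The right plot is not independent of the left, since SOX2-sharing neighbours overlap SOX2 peaks.

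The mix of classes differed between spacings. Of 2102 pairs of distal peaks at 3.5 to 5 kb, 1131 joined a SOX2-free peak to a SOX2-sharing one (53.8%, 51.7 to 56.0), and 218 joined a pair of SOX2-free peaks. The mixed share was 39.8% (37.9 to 41.7) of the 2558 pairs under 2 kb, 43.1% (39.2 to 47.0) at 2 to 3.5 kb, 45.7% (40.8 to 50.6) at 5 to 6.5 kb and 43.3% (39.6 to 47.0) at 6.5 to 10 kb. Pairs of SOX2-free peaks numbered 302, 77, 72 and 113 in the same order. A mixed share also depends on how many of the paired peaks are SOX2-free, which was not equal between spacings. No share expected from that was computed. In the 1131 mixed pairs the SOX2-free peak had a median total of 605.7 and a width of 1050 bases, against 806.1 and 1150 bases for its SOX2-sharing partner. The SOX2-free peak was the lower in 800 of the 1131 (70.7%, 68.0 to 73.4). SOX2-free distal peaks were lower as a class too, with a median total of 560.2 against 724.1. Whether this share differs from that of mixed pairs at other spacings was not tested. The mixed pair with the strongest SOX2-free peak was on chromosome 16, with 4804.8 at chr16:94738251-94739300, against 592.1 in its partner 3.55 kb away.

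The spaced regions were wide and flat and lay more in the space between genes. SOX2-free peaks with such a neighbour had a median width of 1050 bases and a maximum of 1.37, against 750 bases and 1.82 for the other SOX2-free peaks. They were inside genes in 29.4% (27.2 to 31.7), against 37.1% (36.1 to 38.1). On X, 25.8% (22.3 to 29.5) of SOX2-free distal peaks had the neighbour, against 14.9% (14.2 to 15.6) on the autosomes, and for SOX2-sharing peaks these values were 28.9% and 16.1%. The distance to SOX2 had the same second mode, with 645 SOX2-free peaks at 4 to 4.5 kb and 617 at 4.5 to 5 kb, against 364 at 3 to 3.5 kb and 263 at 5 to 5.5 kb. Of those 4 to 5 kb from SOX2, 51.5% (48.7 to 54.3) had the CHD7 neighbour, against 13.5% (10.6 to 17.0) of those 5 to 6 kb away. By the rule a SOX2-sharing neighbour overlaps a SOX2 peak, so a mixed pair also places a SOX2 peak near that distance. The mode in distance to SOX2 and these shares are thus partly built in, and how large that part is was not tested. The SOX2 list itself had no second mode, but its fall was slower at 3.5 to 5 kb than on either side. It had 4762 neighbouring pairs at 2.5 to 3 kb and 4250 at 3 to 3.5 kb. Then came 4122 at 3.5 to 4 kb, 4089 at 4 to 4.5 kb, 3999 at 4.5 to 5 kb and 3457 at 5 to 5.5 kb. Whether some SOX2 peaks share the spacing was not tested.

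At the usual joining distance of 10 kb, 41.4% (40.4 to 42.3) of SOX2-free distal peaks had another CHD7 peak, against 48.8% (47.98 to 49.5) of SOX2-sharing ones. The neighbour was SOX2-free for 16.1%, SOX2-sharing for 27.4% and at a gene end for 4.86%. Runs were short: 8756 regions (83.9%) stood alone among SOX2-free peaks, 725 runs held 2, 65 held 3, 7 held 4 and 1 held 8. The run of 8, chr17:3005951-3038950, summed to 83571.9 and included the fifth strongest region. It lies close to the first assembled base of the chromosome, as do the widest regions, 10000 bases on chromosome 16 and 7450 bases on chromosome 4. In that first stretch of the chromosomes, 300 kb long, lay 27 SOX2-free distal peaks (0.259%), against 93 SOX2-sharing ones (0.575%). Among the runs of 4, one lay by Lmx1b and one by Otp, a homeobox gene of the hypothalamus, and neither span held a SOX2-sharing peak.

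Long genes held the most regions. Cntnap2, a neurexin-family adhesion gene, held 15, against 14 SOX2-sharing peaks, over 2241 kb. Ccser1 held 11, against 3, and Dlgap1, a scaffold of the synapse, 8, against 3. Gpc5 and Csmd1 held 10 each, Sox5, Gpc6 and Dlg2 9 each, Robo2, Ctnnd2 and Gse1 8 each, and Auts2 7. In Gse1 the SOX2-sharing peaks were more numerous, at 16. Over all protein-coding genes 2492 of 21631 held such a region (11.5%), against 3570 (16.5%) with a SOX2-sharing one, and 1740 of the 2492 held 1 only. Gene length moved with these counts: 0.0925% of genes in the second length decile held one and 56.0% in the longest decile.

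Several genes held SOX2-free regions and no SOX2-sharing ones. Dock9, an activator of the GTPase CDC42, Myo3b, a myosin of stereocilia, and Kcnma1, a calcium-activated potassium channel known from hair cells, held 5 each. Hivep3, Fmn2, Ntrk2, Arhgap6, Sorcs3, Megf10 and Tbc1d1 held 4 each. Ntrk2 encodes the receptor for the neurotrophin BDNF, on which vestibular neurons depend, and its regions had totals of 555.6, 432.7, 655.8 and 1088.5. Myo3b had 8 regions once 50 kb on each side were counted, and still no SOX2-sharing peak. These genes were picked for the pattern, so the absence of SOX2-sharing distal peaks is a description. It is not an absence of SOX2 peaks, which were not counted in these genes. The 4 Ntrk2 regions lay 5000, 2950, 0 and 3400 bases from the nearest SOX2 peak, in the order of their totals above. Within 50 kb Ntrk2 also had 1 SOX2-sharing distal peak.

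Counting genes with a SOX2-free distal peak in the gene or within 50 kb gave 8313 of 21631 protein-coding genes (38.4%), and 11349 (52.5%) with a SOX2-sharing one. The gene lists below are read against 38.4% and against the share of all genes of the same lengths. Of 23 lists, 17 lay above the share for their lengths. A peak can lie in the loci of neighbouring genes, and some genes stand in several lists.

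Regulators of the otocyst had such a region at 21 of 32 genes (65.6%, 46.8 to 81.4), against 38.5% for genes of their lengths. Lmx1b, a LIM homeobox gene, had 6 with a summed total of 3479.5, 4 of them inside the gene at 487.3, 551.1, 583.0 and 546.5 and the others 5.04 and 26.3 kb beyond its higher end at 819.8 and 491.9. It also had 7 SOX2-sharing peaks, which lay between and around the SOX2-free ones. Tbx2, a T-box gene of the otocyst, had 4, at 505.5, 478.2, 542.0 and 1088.5, the last 48.05 kb away inside Tbx4. Lmx1a, needed for the endolymphatic duct and canals, had 3 inside the gene at 888.1, 1065.7 and 455.4. Tbx2 also had 2 SOX2-sharing peaks and Lmx1a 3. Dlx5, Dlx6, Tbx3 and Pax8 had SOX2-free regions and no SOX2-sharing one, while Fgf3, Fgf10, Msx1 and Eya4 had neither.

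Genes of semicircular canals had one at 17 of 24 (70.8%, 48.9 to 87.4), against 40.6%, and a SOX2-sharing one at 13 of 24 (54.2%), against 55.0%. Chd7 itself had 3, all 12.8 to 34.1 kb from the lower end of the gene, at 510.1, 842.5 and 510.1. It also had 4 SOX2-sharing peaks, 2 of them inside the gene. Bmper, a secreted BMP modulator, had 2 inside the gene at 883.5 and 537.4 and no SOX2-sharing peak. Dlx5, a homeobox gene of the dorsal otocyst needed for the canals, had 1 at 1011.1, 2.301 kb from its lower end. Otx1, needed for the lateral canal, had 1 at 1124.9, 5.4 kb away inside Ehbp1, and 1 SOX2-sharing peak. Bmp4, the BMP ligand of the canals and cristae, had 1 at 510.1, 45.6 kb beyond its higher end. The region on the Rubie start, described above, lay 184 kb beyond that end. No SOX2-sharing distal peak was found between 50 kb below Bmp4 and 50 kb above Rubie. A CHD7 peak at the end of Bmp4, with a total of 464.5, is a gene end peak, and its overlap with SOX2 is not reported.

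**Figure D4:**
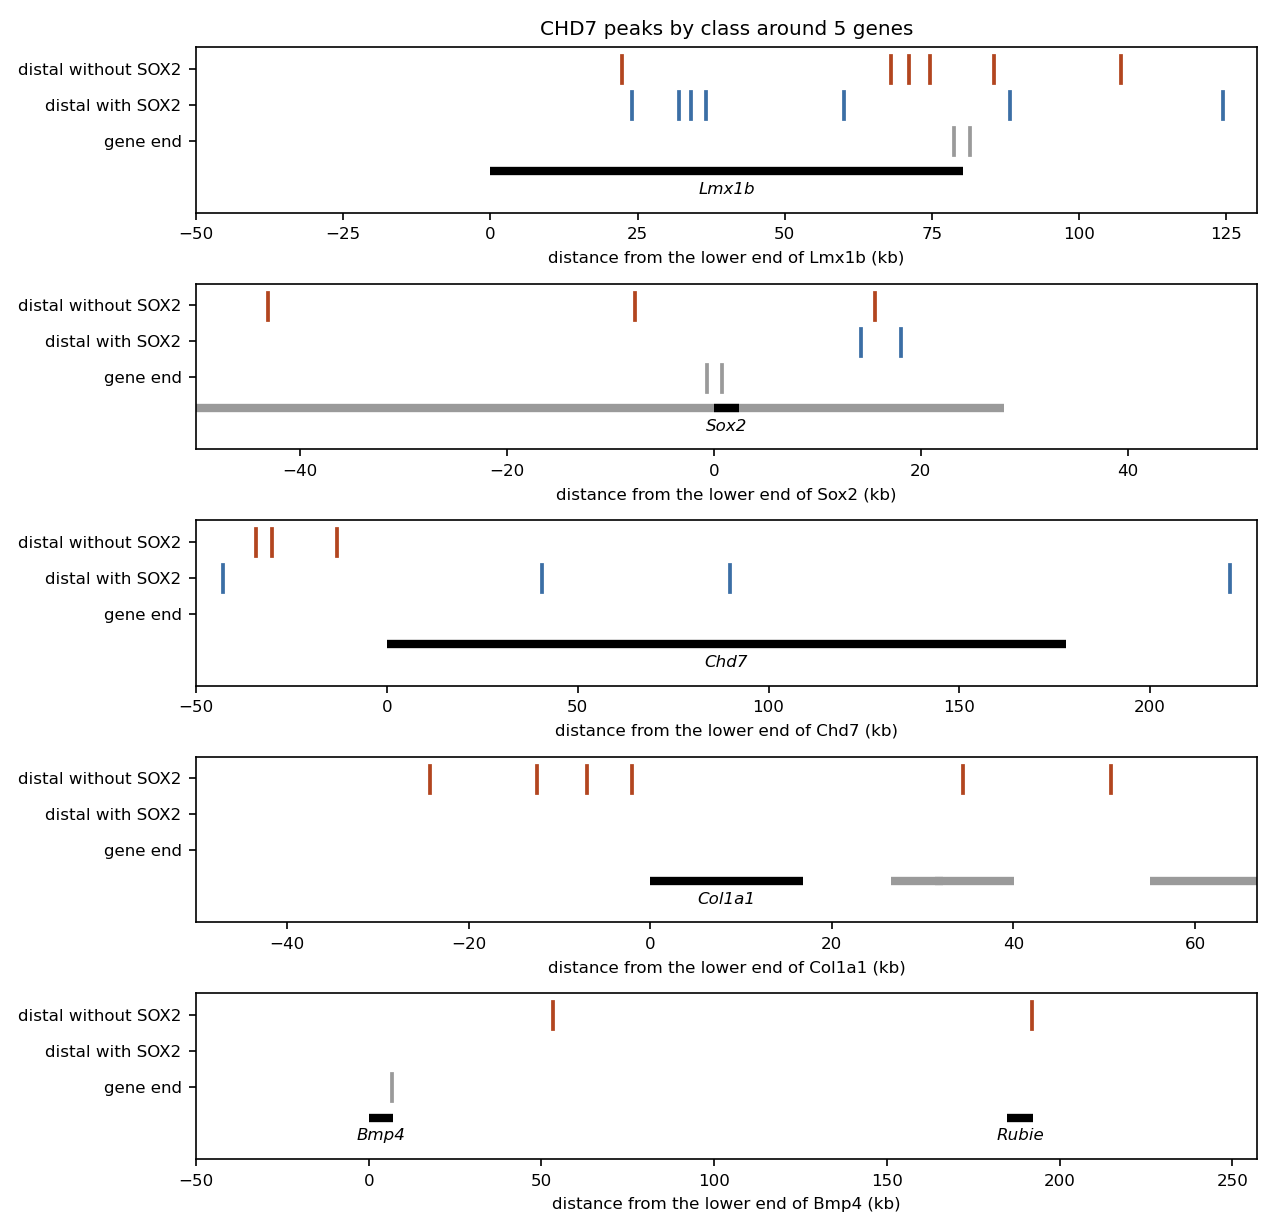
CHD7 peaks around Lmx1b, Sox2, Chd7, Col1a1 and Bmp4 by class (rows), against kilobases from the gene's lower end; each tick is the middle of a peak, black bars are the named genes and grey bars other genes. Lmx1b has 6 SOX2-free and 7 SOX2-sharing distal peaks, Col1a1 6 and 0, and the stretch from Bmp4 to Rubie 2 and 0.

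Prosensory and sensory genes had one at 15 of 24 (62.5%, 40.6 to 81.2), against 35.7%. Sox2 had 3, at 487.3, 619.4 and 537.4, which lay 43.0 and 6.95 kb below and 12.8 kb above the gene, the last of them 50 bases from a SOX2 peak. All 3 were in Sox2ot, the lncRNA gene that spans Sox2. Sox2 also had 2 SOX2-sharing peaks. The Notch targets Hey1 and Hes1 had summed totals of 1580.3 and 1238.8 with no SOX2-sharing peak. Counting gene bodies alone, with no flank, the prosensory and canal lists lay 3.59 and 1.67 percentage points below the share for their lengths, so their regions lay mostly outside the genes. Otic neuroblast genes had one at 13 of 22 (59.1%, 36.4 to 79.3), against 41.2%. They included Eya2 with 5 regions between 469.1 and 778.8, beside 8 SOX2-sharing peaks.

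Signalling pathways ranged from 30.4% to 55.6% of their genes. FGF genes, which induce the otic placode, had one at 7 of 23 (30.4%, 13.2 to 52.9), against 37.8% for their lengths, while 17 of 23 (73.9%, 51.6 to 89.8) had a SOX2-sharing peak, against 52.9%. The highest was Spred2, an inhibitor of the pathway, at 1179.6, beside 2 SOX2-sharing peaks. WNT genes had one at 13 of 35 (37.1%), against 43.4%. Their highest was Tcf7l2, a nuclear effector, with 6 regions summing to 4731.9 and 5 SOX2-sharing peaks. Notch genes had one at 14 of 27 (51.9%), against 40.2% for their lengths, and retinoic acid genes at 10 of 18 (55.6%), against 40.6%. BMP genes had one at 13 of 27 (48.1%), against 44.3%, and SHH genes at 7 of 15 (46.7%), against 45.2%, both close to the share for their lengths. The genes of the retinoic acid-degrading enzymes Cyp26a1 and Cyp26c1 lie together and shared 3 regions summing to 1639.6, with no SOX2-sharing peak. The intervals of these 6 lists overlapped.

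Other lists held more or fewer. Axon guidance and adhesion genes had one at 25 of 32 (78.1%, 60.03 to 90.7), against 66.3% for their lengths. Robo2, a receptor for Slit proteins, had 9 regions summing to 8894.6 and 8 SOX2-sharing peaks. SOX genes had one at 10 of 19 (52.6%, 28.9 to 75.55), against 35.7%. Sox5 had 9 regions of 432.7 to 2591.4 and 11 SOX2-sharing peaks. Chromatin remodeler genes had one at 18 of 37 (48.6%), against 49.0%. Genes of hearing loss and CHARGE syndrome had one at 15 of 30 (50%), against 49.5%. Pcdh15, a tip-link cadherin, had 7 regions of 446.3 to 929.1 and 6 SOX2-sharing peaks. Pax3, mutated in Waardenburg syndrome, had 5 SOX2-free regions. Cell cycle genes had one at 16 of 35 (45.7%), against 36.7%.

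Markers of tissues next to the otocyst were counted in the same way. Markers of the periotic mesenchyme, which surrounds the otocyst, had a region at 16 of 20 genes (80.0%, 56.3 to 94.3), against 37.3% for their lengths, the highest share of the 23 lists. Tbx15 had 2 regions summing to 5583.6 and 1 SOX2-sharing peak. Of that sum, 5028.0 was the region on Mir6481, which lay 40.9 kb from Tbx15 inside Wars2. Col1a1, a fibrillar collagen of bone and skin, had 6 regions of 505.5 to 646.7 and no SOX2-sharing peak. The region at 560.2 lay inside Sgca, and that at 646.7 lay 33.4 kb from Col1a1 and 3.81 kb from Ppp1r9b. Prrx1, a homeobox gene of mesenchyme, had 1 at 628.5, and Tbx18 had 2 at 683.1 and 514.6. Prrx1 had no SOX2-sharing peak and Tbx18 had 3. With the stronger 50% of CHD7 peaks only, 5 of the 20 had one (25%), against 14.2%. That setting kept 3221 of all 10437 SOX2-free distal peaks, so such a fall was not particular to these markers. Endothelial markers had one at 10 of 16 (62.5%), against 44.4% for their lengths, and hindbrain markers at 11 of 22 (50%), against 33.0%. Surface ectoderm markers had one at 9 of 17 (52.9%), against 37.1%, and muscle markers at 8 of 17 (47.1%), against 35.45%. These 4 lists thus lay above the share for their lengths too. Below it were neural crest and glia markers at 5 of 15 (33.3%), against 40.8%, blood markers at 5 of 15 (33.3%), against 37.6%, and liver markers at 2 of 15 (13.3%, 1.66 to 40.5), against 34.3%. The interval lay wholly above the share for the lengths in 4 of the 23 lists, which were the otocyst regulators, the prosensory genes, the canal genes and the periotic markers, and wholly below it in 0. It included that share for the other lists, the otic neuroblast genes among them. With SOX2-sharing distal peaks, otocyst regulators were above the share for length too, at 24 of 32 (56.6 to 88.5%), against 52.6%. Otic neuroblast genes were too, at 19 of 22 (65.1 to 97.1%), against 55.3%. For prosensory genes, at 17 of 24 (48.9 to 87.4%), the interval included 49.35%. It also included the share for periotic markers, at 12 of 20 (36.05 to 80.9%), against 51.6%, and canal genes. The excess at otocyst regulators was thus not particular to SOX2-free peaks. No difference between lists was tested, and the part that cells around the otocyst had in these counts was not tested.

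**Figure D5:**
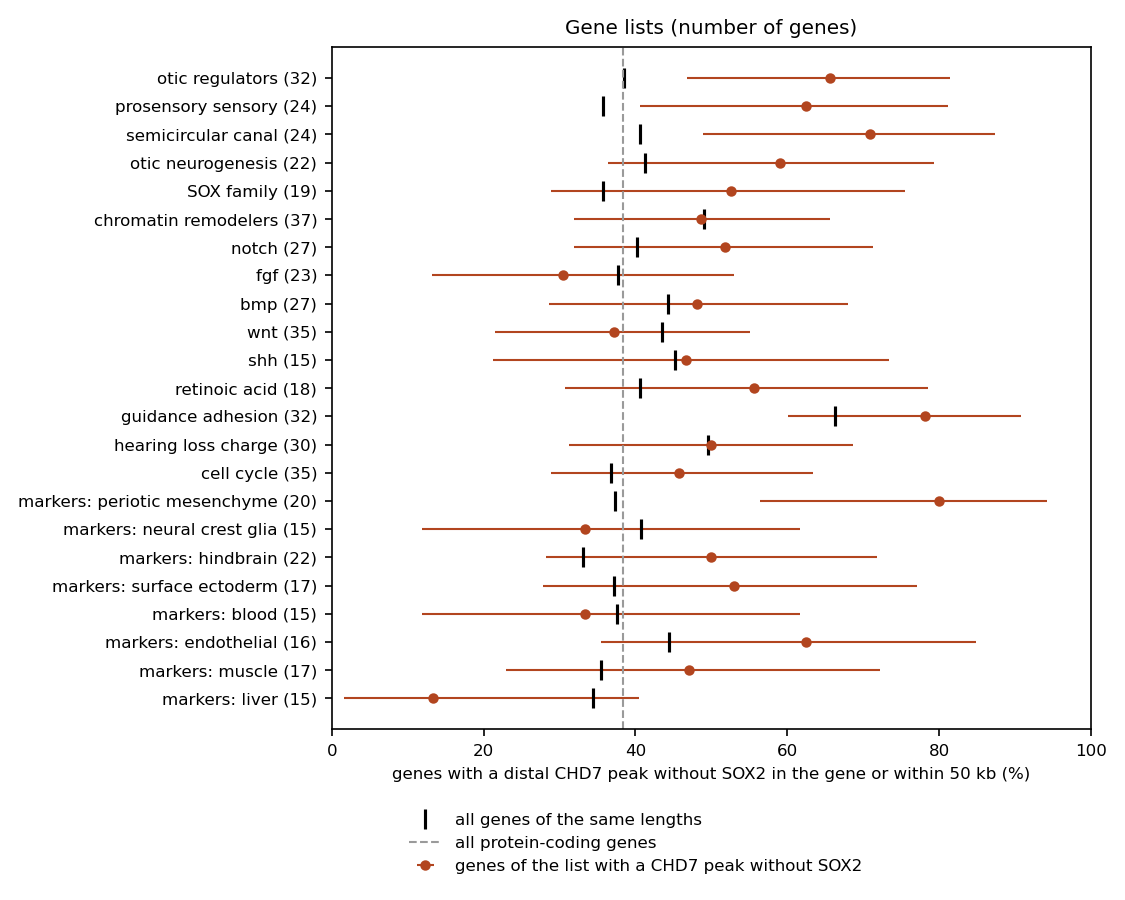
Share (%) of genes with a SOX2-free distal CHD7 peak in the gene or within 50 kb, for 23 gene lists (red points, exact 95% intervals, number of genes in brackets), with the share of all genes of the same lengths (black) and of all protein-coding genes (dashed, 38.4%). The periotic mesenchyme list is highest at 80.0% and the liver list lowest at 13.3%.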

How the data were processed

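CUT&Tag with an antibody against CHD7 or SOX2 was made from 1 pool of 34 otocysts, with 1 library each. The submitters' processing notes name Bowtie2, deepTools, SEACR and build mm10, without versions or calling settings. Each library has its own SEACR-style peak list, in which the authors deposited 2 coverage signal values per peak, the sum over the peak and the maximum. How the authors scaled this signal was not stated, so signal was used only within the CHD7 list, and read depth is unknown. No molecular identifiers are mentioned, so fragments may not be independent molecules.

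Peaks were classed, measured and counted with Python 3.11.15, numpy 2.4.6, pandas 2.3.3 and scipy 1.17.1, using peak borders in bins of 50 bases, printed counting from 1. A SOX2-free peak shared 0 bases with every SOX2 peak. The 373 CHD7 peaks on other sequences were left out. Gene borders came from a RefSeq table of GRCm38.p6 with 21631 protein-coding genes on the chromosomes used, without exons, so exons and introns were not told apart. The share expected for a list is the mean, over its genes, of the share in their decile of gene length. The classing was checked on 4000 simulated peaks, of which 100% came back in their class.

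The regions named are the 10 strongest, the 5 strongest inside and between genes, the 5 farthest from SOX2 among the strongest 10%, those at the rule's border, the genes with the most regions, the list genes with the highest summed signal and the longest runs; others were chosen after their values were seen. Some genes of the lists are not reported by name here. The regions and gene lists were chosen with earlier results of these data known. No test was run over peaks or lists. The control library is not analysed here.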

Additional observations from a re-analysis of the deposited data

How the results depend on the processing

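Each choice was changed alone, and the values below are the number of SOX2-free distal peaks, the share inside genes, the ratios of median total signal and of median width to the SOX2-sharing distal peaks, and the median distance to SOX2, where they moved beyond their interval or by over 1.5 times. The stronger 50% of CHD7 peaks gave 3221 regions and ratios of 0.8148 and 0.9091, and the 10000 strongest gave 1320 regions, 38.79% inside genes and ratios of 0.8201 and 0.8333. The stronger 50% of SOX2 peaks gave ratios of 0.7353 and 0.8947 and a distance of 7850 bases. A SOX2 list as long as the CHD7 list gave 17469 regions, ratios of 0.6737 and 0.85 and a distance of 24150 bases. A gap of at least 500 bases to SOX2 gave a total ratio of 0.7821 and a distance of 4600 bases, a gap of 1000 bases 0.7987 and 4975 bases, and a gap of 5000 bases 4228 regions, ratios of 0.8322 and 0.7368 and 11700 bases. Asking only that no SOX2 peak lie on the maximum-signal region gave a width ratio of 0.9474 and 2850 bases. Gene ends of 5000 bases gave 34.43% inside genes and 4350 bases. For gene ends of 500 or 2000 bases or of every gene in the table, all 5 values stayed within their limits. Both following alternatives were added after the data were seen: peaks wider than 300 bases gave a width ratio of 0.9 and 4100 bases, and leaving out peaks with a CHD7 neighbour at 3.5 to 5 kb gave 37.08% inside genes and ratios of 0.7658 and 0.8333. Total and width ratios were below 1 in all of these. Another CHD7 peak was within 5 kb of 33.34% and within 50 kb of 75.19% of the regions. The distance to SOX2 is lengthened by construction where SOX2 peaks or close peaks are removed; the cause of the other changes was not tested.

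For the 23 gene lists, 134 of the 138 differences from the share for gene length stayed within the interval of the list, which was wide. The others are given first. Within 5 kb the prosensory list was 1.831 percentage points above, and counting gene bodies alone it was at -3.587 and the semicircular canal list at -1.674. With the stronger 50% of CHD7 peaks the periotic mesenchyme list was 10.76 above. Differences that stayed within the interval could still change sign. The FGF list went from -7.321 to 7.675 with the stronger 50% of CHD7 peaks. Within 100 kb the WNT list went from -6.288 to 8.003 and the BMP list from 3.816 to -9.154. The SHH list went from 1.472 to -11.8 with no SOX2 peak within 1000 bases, and to 19.4 for gene bodies alone. No paired analysis was possible because each antibody had 1 library. Motif shares at the maximum-signal regions and their alternatives were not run, since no genome sequence was used. Depth is unknown, so how far the lowest signals of the list limit the count of weak regions cannot be given.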
